A study of Mus musculus with 2 samples.

Results

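Skin wounds of newborn mice with and without the transcription factor PU.1 were compared for 10 genes whose proteins recognise dying cells or link them to the cell that engulfs them. They were taken by gene symbol from a list of known uptake genes and not by a rule on their values. The list was chosen with earlier results of these data known, and all 10 were found among the 24346 gene symbols measured. They comprise Tyro3, Axl and Mertk, known by their initials as the TAM receptors, the bridging proteins Gas6, Pros1 and Mfge8, and the further receptors or receptor subunits Stab1, Timd4, Itgav and Lrp1. PU.1, encoded by Spi1, is needed to make macrophages and other myeloid cells, and the comparison bears on which uptake genes of wounded skin differ where it is missing. Wounds were made in the skin of 1-day-old C57BL/6J littermates and harvested 24 h later, from animals of genotype WT and from animals of genotype PU.1_KO, which lack PU.1 in the whole body. No other allele or agent is given for either group. The study's methods describe incisions, while the design text calls the wounds excisional. Neither the sex of the pups nor how many were used per library is stated. Polyadenylated RNA was sequenced as 1 stranded library per genotype, so there was no replicate, no test between genotypes and no p-value.

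Many cells die in healthy and injured tissue and are cleared by neighbouring cells and by macrophages, a process called efferocytosis. A dying cell exposes the lipid phosphatidylserine on its surface, and some receptors bind it directly, while others grip a soluble bridging protein that coats it. GAS6 and PROS1 carry phosphatidylserine to the TAM receptor tyrosine kinases, whereas MFGE8 links it to alpha v integrins. Both professional phagocytes and cells such as fibroblasts, keratinocytes and endothelium carry parts of this system.

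The promoters of 4 members are shown because these genes had unlike outcomes, described next. Pros1, with the largest upward ratio, is not among them. Stab1 differed most between genotypes, Mertk came next, Itgav differed little, and Timd4 was barely detected. Each sequence is the 250 bases before the transcription start of RefSeq, 5′ to 3′ on the strand of the gene, in GRCm38.p6. The positions are chr14:31168642-31168891 on the minus strand for Stab1, chr2:128698665-128698914 on the plus strand for Mertk, chr11:46810549-46810798 on the plus strand for Timd4 and chr2:83724147-83724396 on the plus strand for Itgav. The Itgav window lies inside the span of the RefSeq gene, which has a start further upstream. The ends of the Stab1 and Timd4 windows reach a few bases into the gene spans given below, and no GENCODE exon lies in any of these windows. Capitals mark GAGGAA, one form of the site of PU.1 and related ETS factors (or TTCCTC where it lies on the other strand). They also mark its longer form GAGGAAGT (ACTTCCTC), and GGGCGG, the GC box, whose other strand reads CCGCCC. Other forms of the PU.1 and ETS site were not sought, so a window without capitals may hold them.
Stab1: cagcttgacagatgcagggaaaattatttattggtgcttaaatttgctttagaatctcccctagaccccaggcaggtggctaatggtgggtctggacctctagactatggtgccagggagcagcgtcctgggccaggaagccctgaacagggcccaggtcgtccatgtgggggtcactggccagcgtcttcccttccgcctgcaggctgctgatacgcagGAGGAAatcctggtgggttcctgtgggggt
Mertk: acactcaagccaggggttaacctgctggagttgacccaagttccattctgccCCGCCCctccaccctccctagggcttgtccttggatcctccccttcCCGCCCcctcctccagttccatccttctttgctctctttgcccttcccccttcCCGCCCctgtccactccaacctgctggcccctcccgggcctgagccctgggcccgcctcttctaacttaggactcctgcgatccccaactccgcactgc
Timd4: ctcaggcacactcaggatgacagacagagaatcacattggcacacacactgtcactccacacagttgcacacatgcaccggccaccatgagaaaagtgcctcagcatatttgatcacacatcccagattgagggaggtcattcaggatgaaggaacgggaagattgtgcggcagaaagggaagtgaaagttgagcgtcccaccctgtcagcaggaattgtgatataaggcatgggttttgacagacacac
Itgav: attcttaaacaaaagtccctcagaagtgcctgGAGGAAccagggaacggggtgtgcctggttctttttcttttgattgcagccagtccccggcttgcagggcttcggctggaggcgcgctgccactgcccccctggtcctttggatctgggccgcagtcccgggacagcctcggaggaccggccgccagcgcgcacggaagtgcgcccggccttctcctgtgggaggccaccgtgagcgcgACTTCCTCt
GAGGAA was present on either strand in the windows of 4 members, Axl, Mfge8, Stab1 and Itgav, and in 23.3% of the 32851 promoter windows of the same length. In Stab1 it began 30 bases before the start, on the strand of the gene. GAGGAAGT, which contains it, was present in 1 member, Itgav, and in 2.44% of all windows. GGGCGG was present in 7 members, all but Stab1, Timd4 and Itgav, and in 32.7% of all windows. It occurred 3 times in the Mertk window. The number of CG pairs was 5 in Stab1, 4 in Timd4, 7 in Mertk and 18 in Itgav, beside a median of 6 over all windows. Such matches describe the letters of a window and were not tested as binding sites.

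Values are FPKM, the fragments of a gene per kilobase of transcript, scaled to the depth of the library, so that levels of different genes can be set side by side. The FPKM sum was 709528 for WT and 687304 for PU.1_KO. From the steps between low values, the depth was estimated at 1.38e+07 and 1.58e+07 fragments. If the libraries were also scaled to each other before deposit, these are scaled depths and not the fragments sequenced. A ratio is called lower or higher when the libraries differed at least 2-fold after values below 0.1 FPKM were raised to 0.1. Intervals are exact binomial intervals at 95% on estimated reads, and they cover counting error only, not the spread between animals. Spi1, the targeted gene, was at 35.4 FPKM in WT and 1.45 FPKM in PU.1_KO, which was 24.3-fold lower (17.8 to 34.0) and 4.12% of the WT level. All 10 macrophage markers were lower in PU.1_KO, at 0 to 9.39% of WT, and their sum went from 461 to 6.50 FPKM. Of these, Adgre1, Tyrobp, Fcgr1 and Aif1 were listed at 0 in PU.1_KO. On other leukocyte lists, 9 of 10 neutrophil, 5 of 6 mast cell and 2 of 6 Langerhans and dendritic cell markers were lower. On these lists 0 were higher. None of 8 fibroblast and none of 8 keratinocyte markers was called. The 8 skeletal muscle markers lay at 152% to 205% of WT. Xist was at 0 FPKM in WT and 9.48 FPKM in PU.1_KO, while Uty, Ddx3y, Kdm5d and Eif2s3y of the Y chromosome were detected in WT alone, so that sex and genotype cannot be told apart. The labelled tissue, skin, carried its keratinocyte and fibroblast markers in both libraries.

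**Figure D1:**
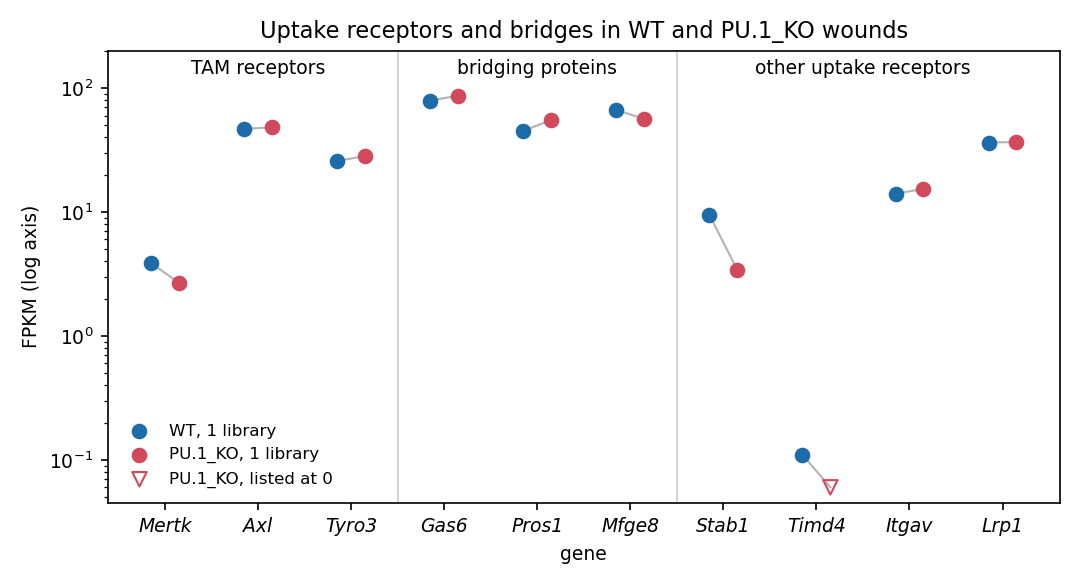
FPKM (log axis) of the 10 members in the WT library (blue) and the PU.1_KO library (red), 1 library each and no error bars, grouped by role. Stab1 shows the steepest line, from 9.49 to 3.40 FPKM, while Axl, Tyro3, Gas6, Itgav and Lrp1 are nearly level and lie slightly below WT if fibroblast markers are used for scaling; the open triangle marks Timd4, listed at 0 in PU.1_KO.

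Of the 10 members, 1 was lower in PU.1_KO, 0 were higher and 9 were neither. Over all 24346 genes, 4.34% were lower and 2.32% higher. Of the 9 members with at least 1 FPKM in a library, 1 was lower and 0 higher, beside 4.45% lower and 1.71% higher among the 13237 genes past that level. At a 1.5-fold limit the members' counts were again 1 and 0, beside 7.67% and 5.79% of all genes, and at a 3-fold limit no member was lower, beside 2.80% of all genes. The median log2 ratio of PU.1_KO over WT was 0.03 for the members and -0.01 for the 16298 genes of at least 0.1 FPKM. Summed over the members, the level was 328 FPKM in WT and 333 FPKM in PU.1_KO. In bulk tissue, fewer cells of a type and less RNA per cell cannot be told apart.

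Gas6 was the most abundant member in both libraries, followed by Mfge8. Axl ranked above Pros1 in WT and below it in PU.1_KO, and the order after them was Lrp1, Tyro3, Itgav, Stab1, Mertk and Timd4 in both. With 1 library per genotype, no spread is known against which neighbours in this order could be compared. In each library 7 members stood at 10 FPKM or more.

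Among the TAM receptors, Mertk showed the largest difference. Mertk encodes the receptor best known from macrophages and from the pigment epithelium of the eye. It lies on chr2:128698915-128803162 and was at 3.87 FPKM in WT and 2.68 FPKM in PU.1_KO, from an estimated 219 and 174 reads. The PU.1_KO level was 69.2% of WT, a WT over PU.1_KO ratio of 1.45 (1.18 to 1.77), which did not reach the 2-fold limit. A log2 ratio as low or lower was found in 9.07% of the genes of at least 1 FPKM. Beside it, the summed macrophage markers were at 1.41% of WT in PU.1_KO.

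Axl, which is found in fibroblasts, endothelium and some macrophages, was the main TAM receptor transcript of these wounds. It lies on chr7:25756500-25788924 and was at 46.8 FPKM in WT and 48.2 FPKM in PU.1_KO, a PU.1_KO over WT ratio of 1.03 (0.978 to 1.09) from 2625 and 3107 estimated reads. This counting interval held 1. Tyro3, the TAM receptor best known from the nervous system, lies on chr2:119797740-119818104 and was at 25.8 and 28.3 FPKM, a ratio of 1.10 (1.02 to 1.17). Under scaling to fibroblast markers, which lowers PU.1_KO log2 values above the floor of 0.1 FPKM by 0.26, Axl and Tyro3 lay slightly below WT instead.

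The summed TAM receptor level was 76.5 FPKM in WT and 79.2 FPKM in PU.1_KO. Axl made up 61.2% of that sum in WT and 60.9% in PU.1_KO. Tyro3 made up 33.7% and 35.7%. The share of Mertk was 5.06% in WT and 3.38% in PU.1_KO. These shares come from within each library and do not move with its scaling.

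The TAM ligands were abundant in both genotypes. Gas6, on chr8:13465374-13494535, encodes a vitamin K-dependent protein that binds all TAM receptors, and was at 79.2 FPKM in WT and 86.8 FPKM in PU.1_KO. Its ratio was 1.10 (1.04 to 1.15), and it fell below WT under fibroblast-marker scaling. Pros1, on chr16:62854307-62929346, encodes protein S, an anticoagulant of blood plasma that also activates TYRO3 and MERTK. It was at 45.2 FPKM in WT and 55.2 FPKM in PU.1_KO, 122% of WT (1.15 to 1.29 as a ratio), the largest upward ratio among the members and under the 2-fold limit. The ratio of Pros1 stayed above 1 in each scaling tried, although under fibroblast-marker scaling its log2 value was only 0.03.

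Together the TAM ligands were at 124 FPKM in WT and 142 FPKM in PU.1_KO. Gas6 made up 63.7% of this sum in WT and 61.1% in PU.1_KO. The ligand sum was 1.63 times the TAM receptor sum in WT and 1.79 times in PU.1_KO. Transcripts of ligands therefore outnumbered those of their receptors, per length, in both libraries.

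Mfge8 was the bridging protein with a lower value in PU.1_KO. It encodes a secreted protein of milk fat globules and of several tissues that joins phosphatidylserine to alpha v integrins. It lies on chr7:79133768-79149060 and was at 66.7 FPKM in WT and 56.3 FPKM in PU.1_KO, 84.4% of WT, with a PU.1_KO over WT ratio of 0.844 (0.789 to 0.903). This did not reach the 2-fold limit. The bridging proteins summed to 191 FPKM in WT and 198 FPKM in PU.1_KO.

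Stab1 was the member called lower. It encodes stabilin-1, a large scavenger receptor of resident macrophages and of lymphatic and sinusoidal endothelium that can bind phosphatidylserine directly. It lies on the minus strand of chr14:31139017-31168651, and its promoter is printed above. It was at 9.49 FPKM in WT and 3.40 FPKM in PU.1_KO, from an estimated 1021 and 421 reads. The WT level was 2.79 times that of PU.1_KO (2.49 to 3.13), so that PU.1_KO kept 35.9% of it, and 3.48% of the genes of at least 1 FPKM had a ratio as low or lower. The call held under each floor, pseudocount and scaling tried, with log2 ratios from -1.74 to -1.25, and was lost at the 3-fold limit.

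Cell type markers of the cells known to carry Stab1 were set beside it. The 6 resident macrophage markers Lyve1, Folr2, Cd163, Cbr2, F13a1 and Mrc1 summed to 229 FPKM in WT and 31.7 FPKM in PU.1_KO, and 4 of them were lower. Folr2 was at 17.3 and 0.145 FPKM, Cd163 at 29.0 and 0.0448 FPKM, and F13a1 at 73.9 and 0 FPKM. Cbr2, at 16.8 and 9.55 FPKM, was not called. The 7 blood endothelium markers lay at 83.9% to 209% of WT, with 0 lower and 1 higher, Vwf. The 6 lymphatic endothelium markers lay at 56.1% to 268% of WT, with 0 lower and 1 higher, Ccl21a. Lyve1, which is on both the resident macrophage and the lymphatic list, was at 38.3 and 21.5 FPKM. Stab1, at 35.9% of WT, lay above the 10 general macrophage markers, the highest of which was at 9.39%. It lay below the resident macrophage markers Cbr2, at 57.0%, and Lyve1, at 56.1%, the latter also the lowest of the endothelial lists. Stab1 lay above the 4 resident macrophage markers called lower, the highest of which was Folr2, at 0.835% of WT. The part of either cell type in the Stab1 values was not tested.

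The genes nearest to Stab1 in log2 ratio, -1.48, were sought among 5039 genes with a WT level within 2-fold of it. They were Nrros, at 8.83 and 3.18 FPKM, Apbb1ip, at 13.1 and 4.76 FPKM, and 4930404N11Rik, at 5.54 and 1.95 FPKM. Nrros encodes a membrane protein that holds latent TGF-beta on myeloid cells, and Apbb1ip an adaptor of integrin activation in leukocytes. With 1 value per genotype, this likeness rests on a single ratio.

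Stab1 shares 112 exonic bases with Nt5dc2 on the opposite strand, a neighbour at 64.2 FPKM in WT and 46.4 FPKM in PU.1_KO. The library kit keeps strand, but whether the counting used it is not given in the sources used here. Were strand ignored, about 0.921 FPKM of the WT and 0.667 FPKM of the PU.1_KO value of Stab1 could come from Nt5dc2, and the WT over PU.1_KO ratio of the remainder would be 3.13. Gas6 shares 34 bases with Tmem255b, which was at 0.0760 FPKM in WT and 0.199 FPKM in PU.1_KO. Itgav shares 634 bases with Gm13684, for which no value is listed.

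Timd4 was barely detected. It encodes TIM-4, a direct phosphatidylserine receptor of certain resident macrophages, and lies on chr11:46810786-46844333. It was at 0.110 FPKM in WT, an estimated 3 reads, and listed at 0 in PU.1_KO. A count of 0 allows up to 3 reads, or 0.0959 FPKM, so that a difference between genotypes was not detectable at this depth and no fold is given.

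Itgav and Lrp1, both found in many cell types, differed little. Itgav encodes the alpha v integrin chain that receives MFGE8, lies on chr2:83722303-83806917 and was at 14.1 FPKM in WT and 15.3 FPKM in PU.1_KO, a ratio of 1.09 (1.01 to 1.17). Lrp1 encodes a very large endocytic receptor that takes up cells marked by calreticulin as well as protease complexes. It lies on chr10:127538157-127621148 and was at 36.3 and 36.7 FPKM, a ratio of 1.01 (0.979 to 1.04) from 7362 and 8540 estimated reads, the most reads of any member. Both lay slightly below WT under fibroblast-marker scaling. The ratio of Mfge8 to Itgav transcript was 4.74 in WT and 3.67 in PU.1_KO.

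**Figure D2:**
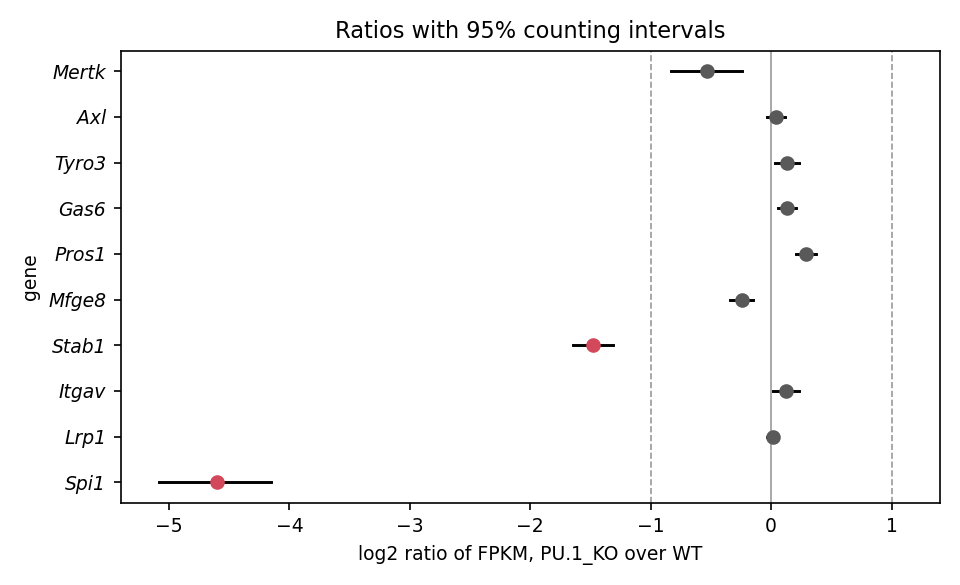
Log2 ratio of FPKM, PU.1_KO over WT, for 9 members and for Spi1, with bars for the 95% counting interval, which does not cover the spread between animals; dashed lines mark 2-fold, and Timd4, listed at 0, is left out. Stab1 and Spi1 (red) lie beyond 2-fold, and the bars of Axl and Lrp1 cross 0; scaling to fibroblast markers would shift every point by -0.26 and put Axl, Tyro3, Gas6, Itgav and Lrp1 below 0.

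Counting error alone left 7 of the 9 measurable members off a ratio of 1. Mertk, Mfge8 and Stab1 were below it in PU.1_KO, and Tyro3, Gas6, Pros1 and Itgav above it, of which Tyro3, Gas6 and Itgav turned under fibroblast-marker scaling. The intervals of Axl and Lrp1 held 1. The share of all genes with an interval off 1 was not counted. The intervals of all 8 fibroblast and all 8 keratinocyte markers also lay off 1, so the count does not set the members apart. For the members with the most reads an interval spans a few percent only, and whether such differences exceed those between animals was not measured.

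The wider uptake pathway was described by 8 lists with 82 genes, all of them listed in both libraries. In PU.1_KO 16 of the 82 were lower, 1 was higher and 65 were neither, beside 4.34% lower and 2.32% higher over all 24346 genes. The lists were chosen with earlier results of these data known, so their counts, here and below, only describe the genes picked. Among 17 other uptake receptors, 5 were lower, 1 was higher and 11 were neither. Of the 17, 13 stood at 1 FPKM or more in WT. Some of those called neither were below 0.1 FPKM in both libraries, where no call was possible. Cd14, the lipopolysaccharide co-receptor that also tethers dying cells, went from 101 to 5.97 FPKM, a ratio of 17.0 (14.3 to 20.4). Msr1, a class A scavenger receptor of macrophages, was at 58.5 and 0.0500 FPKM. Cd300lf and Trem2, lipid-sensing receptors of myeloid cells, were at 14.6 and 3.50 FPKM in WT and listed at 0 in PU.1_KO. Cd36, the fatty acid and thrombospondin receptor of fat cells, capillaries and macrophages, was at 135 and 138 FPKM. Jmjd6, on the list although its role as an uptake receptor is disputed, was at 32.3 and 37.5 FPKM. Megf10, an engulfment receptor of glia and muscle satellite cells, was the gene called higher, at 0.955 and 1.93 FPKM, and is named after its value was seen. Its PU.1_KO over WT ratio was 2.02 (1.58 to 2.59), only just past the 2-fold limit, and the interval reaches below that limit. The higher skeletal muscle markers given above accompany Megf10, and their part was not tested.

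Of 13 other bridging proteins, 5 were lower and 0 higher, and 9 of the 13 stood at 1 FPKM or more in WT. C1qa, C1qb and C1qc, the chains of the complement protein that coats dying cells, were at 80.6, 123 and 110 FPKM in WT and listed at 0 in PU.1_KO. Thbs1, thrombospondin 1, was at 252 and 96.0 FPKM. Anxa1 and Calr, a phosphatidylserine-binding annexin and the calreticulin bound by LRP1, were at 1038 and 388 FPKM in WT and 822 and 341 FPKM in PU.1_KO. The wounds without PU.1 thus kept the transcripts of GAS6, protein S and MFGE8 at 84.4% to 122% of WT while those of C1q were listed at 0.

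None of the 5 beta chains that pair with alpha v was called. Itgb1 was at 178 FPKM in both libraries, and Itgb5 at 31.9 and 36.7 FPKM. The partner sum was 221 FPKM in WT and 226 FPKM in PU.1_KO, and there was 12.7 times as much Itgb1 as Itgav transcript in WT and 11.6 times in PU.1_KO. ITGB1 also pairs with many other alpha chains.

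Inside the engulfing cell, 3 of 15 genes of the machinery were lower and 0 higher. Rac2, the GTPase of blood cells, was at 17.7 FPKM in WT and listed at 0 in PU.1_KO. Its exchange factors Vav1 and Dock2, also of blood cells, were at 4.26 and 2.98 FPKM in WT, with Vav1 listed at 0 and Dock2 at 0.0101 FPKM in PU.1_KO. The widely expressed Rac1 was at 212 and 203 FPKM, and Rhog, which acts upstream of RAC1, at 83.3 and 50.5 FPKM. Of 11 genes of digestion and lipid response, Slc7a11, a cystine importer, was called lower, at 5.75 and 2.59 FPKM. Apoe, which carries cholesterol out of cells, was at 689 and 537 FPKM, and the mitochondrial carrier Ucp2 at 165 and 84.4 FPKM.

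Of 11 genes for signals of dead cells, 2 were lower, P2ry6 and Gpr132. P2ry6, a receptor for uridine diphosphate released by dying cells, was at 8.91 and 1.25 FPKM. Gpr132, a receptor that draws macrophages to lysophosphatidylcholine, was under 1 FPKM in both libraries and falls outside the rule for named genes. Cd47, which holds phagocytes off living cells, was at 60.4 and 39.4 FPKM, and Tmem30a, a subunit of phosphatidylserine flippases, at 34.0 and 33.6 FPKM. None of 4 genes for vitamin K-dependent carboxylation and receptor shedding was called, with Vkorc1 at 45.6 and 41.7 FPKM and the protease Adam10 at 39.9 and 39.0 FPKM. None of 6 genes for the chaperone and ligands of LRP1 was called. Timp3, an inhibitor of matrix proteases, was at 35.0 and 41.5 FPKM and was the only one with a log2 ratio above 0 after the floor. The median log2 ratio of this list was -0.14, and its genes of at least 1 FPKM in WT lay at 54.2% to 118% of WT.

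**Figure D3:**
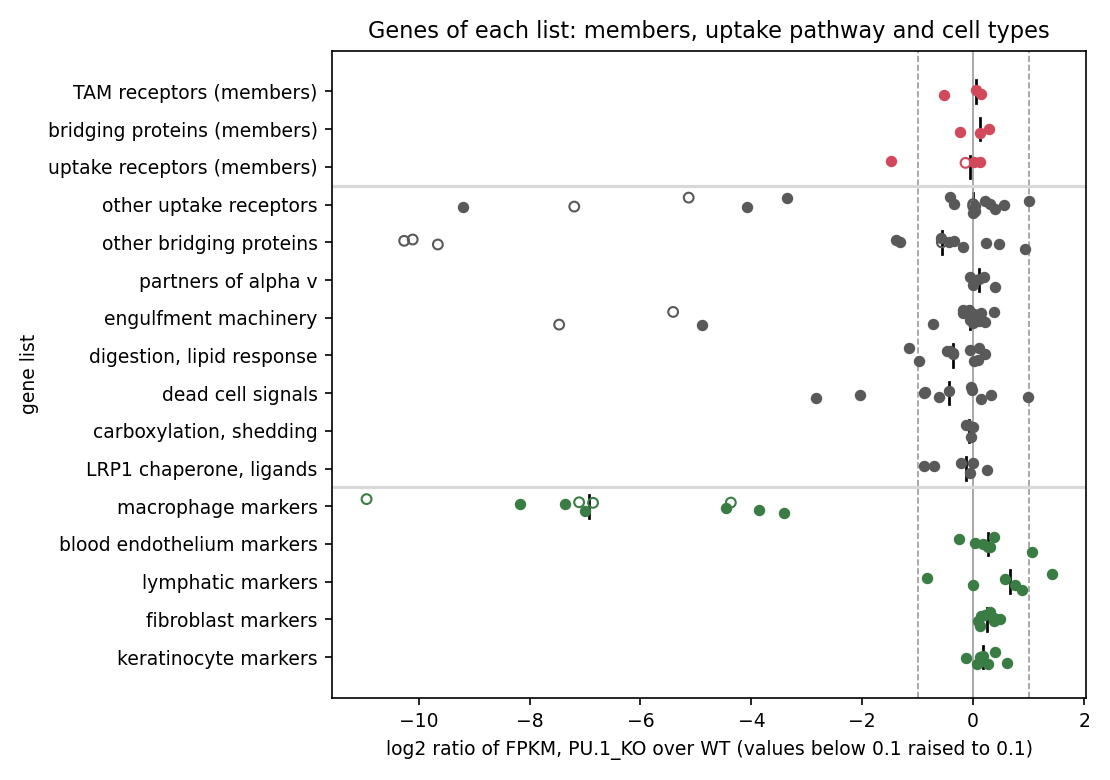
Log2 ratio of FPKM, PU.1_KO over WT, for each gene of the member groups (red), the 8 pathway lists (grey) and 5 cell type marker lists (green), after values below 0.1 FPKM were raised to 0.1; open points are listed at 0 in PU.1_KO, vertical ticks are list medians and dashed lines mark 2-fold. The 10 macrophage markers lie far to the left, a few genes of the uptake receptor, bridging and machinery lists lie with them, and of the members only Stab1 passes the 2-fold line.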

How the data were processed

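Skin wounds of 1 WT and 1 PU.1_KO library were measured. The authors prepared stranded libraries from mRNA, read 75 bases from 1 end of each fragment, used CASAVA 1.8.2 for base calling and mm10 for mapping, and deposited FPKM values from Cuffnorm 2.2.1. The submitters' processing notes name TopHat2 2.1.1, Bowtie2 2.2.8, SAMtools 0.1.18 and Cuffdiff 2.2.1. For the annotation, the read filters and the strand setting nothing was given in the sources used here.

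Ratios were taken from the deposited FPKM after values below 0.1 were raised to 0.1, and genes at least 2-fold apart were called. The files hold no counts. Equal read numbers recur as 459 low genes that share a WT over PU.1_KO ratio of 1.15 within 0.001. Transcript length less 200 nt then gave the depth, with 82.4% of 1197 WT and 82.6% of 1164 PU.1_KO genes under 5.5 reads within 0.15 of a whole read. The longest RefSeq-linked GENCODE transcript was used, which was the sole one for 7 members. Another floor, a pseudocount, other scalings, a filter on low values and other fold limits were tried, and the closing section gives their effect.

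Members, lists and limits were chosen with earlier results of these data known. The text names all members, from each pathway list up to 4 called genes of at least 1 FPKM and up to 2 uncalled genes with the highest FPKM, and the 3 genes nearest in ratio to a member called lower. The values of 1 gene of these lists are not reported here. Nt5dc2, Tmem255b, Gm13684, Megf10 and Gpr132 were named after their values were seen. All members matched a RefSeq promoter and gene position in GRCm38.p6. The functions were tested on simulated data. Tools were Python 3.11.15, scipy 1.17.1, numpy 2.4.6, pandas 2.3.3 and, for figures, matplotlib 3.10.9.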

Additional observations from a re-analysis of the deposited data

How the results depend on the processing

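The counts of members called lower and higher, 1 and 0, were the same under each of 8 alternatives (floor, pseudocount, 3 scalings, 2 fold limits and a filter on low values), except that 0 members were lower at a 3-fold limit. The median log2 ratio of the members moved past its counting interval only when PU.1_KO was scaled to the fibroblast markers, to -0.18. That scaling lowers PU.1_KO log2 values above the floor by 0.26. Of 45 alternatives of the 9 members with a counting interval, 35 stayed within it and 10 moved, and Stab1, the member called lower, kept its direction. Timd4 has no interval. Mertk ranged from -0.79 to -0.41 and Mfge8 from -0.50 to -0.20, below 0 in each. Leaving out a replicate was not possible with 1 library per genotype. No paired analysis was possible because each genotype has 1 library and no test was run. Depth limits Timd4 most, with 3 and 0 estimated reads, and the lack of replicates limits every ratio.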
